A study of Mus musculus with 5 samples.

Results

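Interleukin-6 (IL-6) family signalling was followed through 10 genes: the ligands Il6, Il11 and Lif, the receptor chains Il6st, Il6ra, Osmr and Lifr, the transcription factor Stat3, and the feedback inhibitors Socs2 and Socs3. They were taken by symbol from the deposited table, and all 10 of 10 were found among its 55401 genes. The table held bone marrow mesenchymal stem cells (BMSCs) of wild-type mice, plastic-adherent stromal cells with the capacity to become osteoblasts, adipocytes or chondrocytes. Cells grew for 72 h, and continuous negative pressure from a vacuum pump was held for 48 h at -80, -120, -160 or -200 mmHg, with a culture at 0 mmHg as the control. All 5 conditions were sequenced as single libraries (1 each). The strain, sex and age of the mice, the number of animals behind the cultures, and whether the control sat in the same chamber are not given in the sources used here.

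Ligands of this family bind a receptor complex that contains gp130, the product of Il6st, which most cells carry. The partner chain sets which ligand a cell can answer: the IL-6 receptor (Il6ra) for IL-6, the LIF receptor (Lifr) for leukaemia inhibitory factor, and the oncostatin M receptor (Osmr) for oncostatin M. Bound receptors activate Janus kinases, which phosphorylate STAT3, and STAT3 induces SOCS3, which in turn blocks gp130. In marrow, IL-6 family ligands made by stromal cells are known to promote osteoclast formation, and osteoblast lineage cells respond to oncostatin M and LIF.

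Values are FPKM, that is, fragments divided by exon length and by the total of the library. Levels can be set side by side between genes as far as the annotated exon length fits the transcripts present. The values gave back whole reads, and the library totals were 16600622 to 18398911 reads. Differences were taken between values of log2(FPKM + 1), and they understate the change of genes near or below 1 FPKM. The size rule asked for a difference of 1 or more on that scale (2-fold) in a gene whose mean over the 5 libraries reached 1 FPKM, as it did for 12113 genes. The words rose and fell are used only of such differences. With 1 library per condition no difference has a replicate check or a p-value. The 95% Clopper-Pearson intervals cover the counting of reads only, and, without molecular identifiers, reads may be copies of the same molecule. An exact permutation of 1 control against 4 pressure libraries could not give a one-sided p below 0.2, and none was run.

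All comparisons with the control rest on the same library, which stood apart from the others. Reads of 4 Y-linked genes numbered 2493 there and 0 in each of the 4 pressure libraries. The control cells thus differed from the others in Y-linked reads as well as in pressure. What a difference in the source of the cells, such as other animals, did cannot be told apart from what pressure did. Over all genes the median log2 difference was 0.14 to 0.16, and the differences below are to be read against that shift. In bulk RNA, fewer cells of a type and less RNA per cell cannot be told apart.

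The stromal markers varied widely in level. Those read well in all 5 libraries included Pdgfra (44.3 FPKM in the control, 63.7 to 71.5 FPKM under pressure), Pdgfrb (64.9 and 47.3 to 54.3 FPKM) and Cxcl12 (201 and 129 to 140 FPKM). Of 14 stromal markers 12 were measured. At all 4 pressures 0 rose, beside 6.49% of all genes, and 2 fell, beside 4.46%. The 2 that fell were Ly6a and Vim, named after their values were seen. The 14 stromal markers summed to 4657 FPKM in the control and to 2412 to 2659 FPKM in the pressure libraries. Thy1, a surface antigen often used to define these cells, was nearly unread in the control (0.0181 FPKM) and had 1.001 to 1.83 FPKM in the pressure libraries. Other defining markers were low throughout, with Eng at 1.34 and 1.52 to 2.43 FPKM, Nt5e at 0.322 and 0.875 to 1.28 FPKM, and Lepr at 0.0308 and 0.205 to 0.393 FPKM. Of 12 macrophage markers C1qa, C1qb, C1qc, Tyrobp and Itgam were at 0 in all 5 libraries. Only 2 of the 12, Lyz2 and Cd68, reached a mean of 1 FPKM. Both rose at all 4 pressures, beside 6.49% of all genes. Fcer1g, below that mean, lay on the other side, with 0.435 FPKM without pressure and no more than 0.190 FPKM under it. Ptprc and Adgre1 of the same list stayed at 0.0182 FPKM or below in every library. That list summed to 4.41 FPKM in the control against 16.01 to 19.2 FPKM with pressure. Granulocyte markers summed to 8.99 and 24.1 to 31.2 FPKM with S100a9, Csf3r and Mpo at 0, mostly from Camp (8.10 and 18.8 to 24.6 FPKM) and Prtn3 (0.596 and 3.63 to 6.49 FPKM). Endothelial markers summed to 1.09 and 3.39 to 4.95 FPKM with Emcn at 0, mostly from Plvap (0.711 and 2.70 to 4.18 FPKM). Osteoclast markers summed to 90.1 and 3.80 to 4.87 FPKM with Dcstamp at 0 and Acp5, Ocstamp and Calcr at 0.118 FPKM or below, so that the sum was nearly all Ctsk (78.1 and 1.15 to 2.31 FPKM) and Mmp9 (11.99 and 2.52 to 2.79 FPKM). Lymphocyte markers summed to 0.166 and 0.0760 to 0.252 FPKM with Cd8a, Cd3g, Cd3e and Ms4a1 at 0. The part of other cells in the differences below was not tested.

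The promoter sequence of the family was searched for 3 motifs on both strands, because NF-kB, AP-1 and STAT factors are textbook regulators of Il6 and Socs3, and the ligands and Socs3 are shown for their matches. The letters searched were TTCNNNGAA for STAT, for AP-1 TGACTCA with any base as the fourth letter, and for NF-kB GGGATTTTCC with any base as the fourth, the fifth and the eighth letter. None of the 3 motifs contains another. RefSeq promoter windows (GRCm38.p6, 250 bases before to 50 after a start) were found for 9 of the 10 genes, in 11 windows, and not for Socs2. The stretches below lie before a RefSeq start and outside annotated exons of their gene, are written 5′ to 3′ on the gene's strand, and have the matches in capitals. Those of Il11 and Socs3 lie within the annotated span of their gene (4772373 to 4782859 and 117966079 to 117970047). Another Il11 window, at 4782808 to 4783107 by the annotated gene start, held 0 matches. Il6 (chr5:30012864-30013113, plus strand) holds an AP-1 and an NF-kB match, Il11 (chr7:4778142-4778391, minus strand) and Lif (chr11:4257318-4257556, plus strand) an AP-1 match each, and Socs3 (chr11:117969452-117969616, minus strand) a STAT match.
Il6: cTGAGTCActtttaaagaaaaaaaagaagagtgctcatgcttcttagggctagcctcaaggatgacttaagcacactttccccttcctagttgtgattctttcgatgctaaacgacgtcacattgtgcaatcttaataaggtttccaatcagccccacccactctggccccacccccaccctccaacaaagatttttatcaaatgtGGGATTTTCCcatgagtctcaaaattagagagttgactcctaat
Il11: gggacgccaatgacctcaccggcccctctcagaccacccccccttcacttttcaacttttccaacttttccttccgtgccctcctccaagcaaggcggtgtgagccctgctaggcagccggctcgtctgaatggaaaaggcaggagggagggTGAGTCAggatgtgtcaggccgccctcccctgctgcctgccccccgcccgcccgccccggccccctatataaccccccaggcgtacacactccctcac
Lif: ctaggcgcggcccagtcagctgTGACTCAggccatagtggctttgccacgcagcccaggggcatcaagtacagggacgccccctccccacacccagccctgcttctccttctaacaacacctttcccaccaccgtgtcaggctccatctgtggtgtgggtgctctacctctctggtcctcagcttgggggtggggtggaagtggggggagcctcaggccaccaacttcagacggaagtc
Socs3: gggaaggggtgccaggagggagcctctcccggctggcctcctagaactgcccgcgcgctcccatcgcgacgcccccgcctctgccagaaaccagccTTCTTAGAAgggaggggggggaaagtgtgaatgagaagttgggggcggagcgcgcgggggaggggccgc
In the Il6 stretch the AP-1 letters begin at base -249 and the NF-kB letters at base -44, counted back from -1 just before the start. The Il11 match begins at base -98, the Lif match at -228 and the Socs3 match at -154. An AP-1 match was also found in the Osmr window, from base 4 after the start. Of all 27025 genes with a window 9.55% held the STAT letters in at least 1 window, 8.97% the AP-1 letters and 5.48% the NF-kB letters, while 1, 4 and 1 of the 9 genes did. Counted over all 32851 windows the shares were 8.30%, 7.81% and 4.79%. A match is a description of the letters. The 4 genes with an AP-1 match did not share a direction in the values below: Il6, Il11 and Osmr were above the control and Lif was below it at 3 of 4 pressures.

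Of the 10 genes 9 reached the expression limit, and Il11 did not. Under pressure 1 of these 9, Socs2, rose at all 4 pressures, beside 6.49% of all genes, and 0 fell at all 4, beside 4.46% of all genes. Socs2 had 0.690 FPKM in the control and reached the expression limit only through the pressure libraries, where it was higher. The count therefore says little about the set. Il6 and Osmr rose at 3 of 4 pressures each. Counted singly, 2 of 9 rose at -80 mmHg (10.7% of all genes), 2 at -120 mmHg (8.85%), 3 at -160 mmHg (9.59%) and 3 at -200 mmHg (9.1%). The number that fell was 0 at each pressure, beside 6.89%, 6.45%, 6.03% and 6.38% of all genes in the same order. With a limit of 1.5-fold in place of 2-fold, 4 of 9 (Il6, Osmr, Stat3 and Socs2) were higher at all 4 pressures, beside 17.8% of all genes, and 0 were lower, beside 10.4%. By any amount, 6 of 9 stood above the control in all 4 pressure libraries (51.5% of all genes did) and 2, Il6st and Lifr, below it (33.3%). The median log2 difference of the 9 was 0.65, 0.49, 0.51 and 0.51 at -80, -120, -160 and -200 mmHg.

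**Figure D1:**
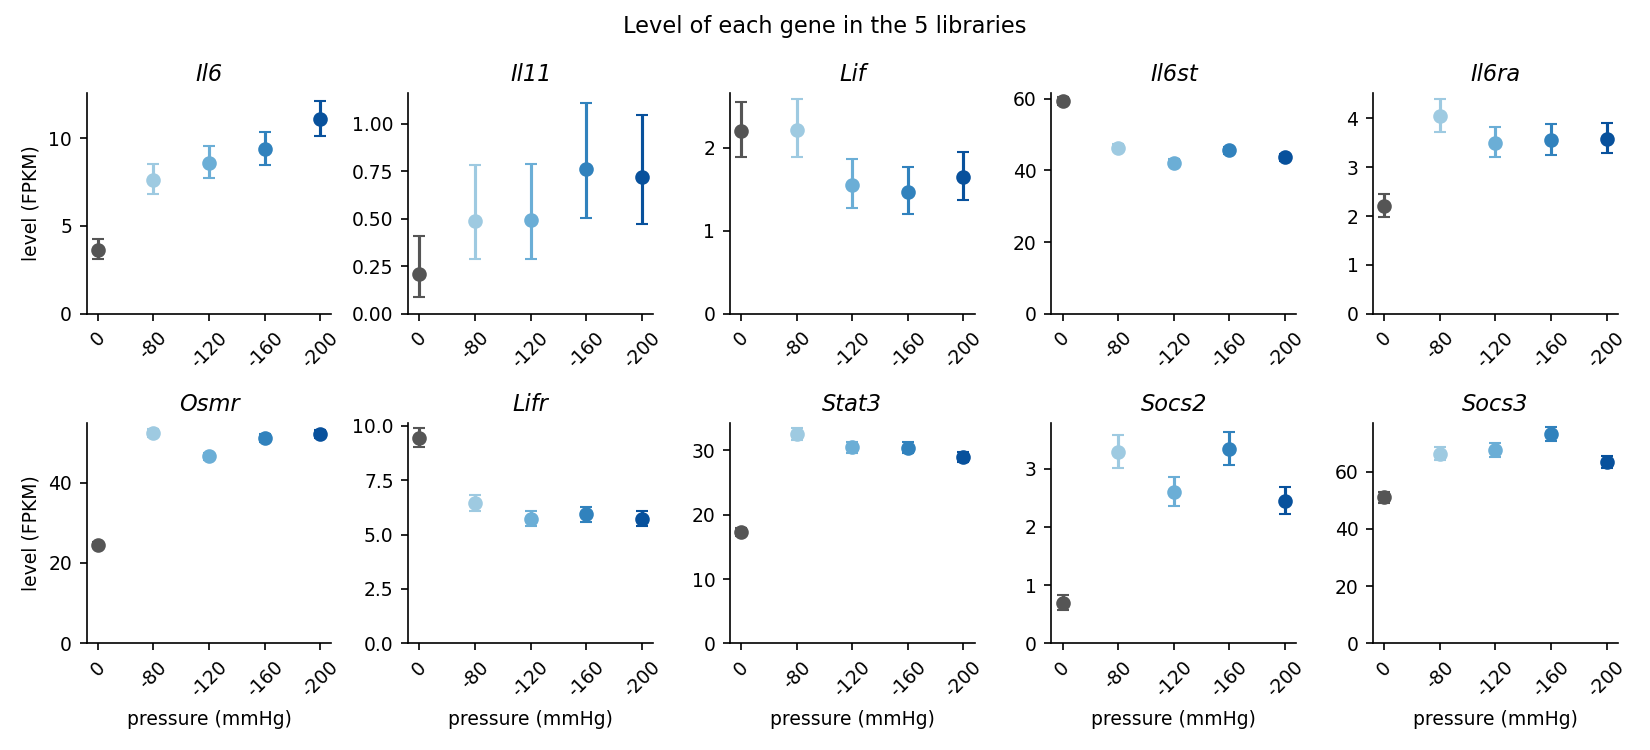
Level in FPKM (vertical axis, from 0, a scale of its own for each gene) against pressure in mmHg for the 10 genes. Points are single libraries and bars are 95% Poisson intervals of the reads, so they show counting error only. Il6 increases at every step from 3.65 to 11.1 FPKM, and the control point lies outside the range of the 4 pressure points for every gene but Lif.

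Il6, which encodes interleukin-6 itself (chromosome 5, 30013114 to 30019981, plus strand, GRCm38), stood at 3.65 FPKM in the control and at 7.62, 8.61, 9.37 and 11.1 FPKM at -80, -120, -160 and -200 mmHg. The control was the lowest library, and each stronger pressure gave a higher value than the one before it. From 163 reads in the control to 485 at -200 mmHg, the ratio per library total was 3.03 (95% interval 2.53 to 3.64). The log2 difference was 0.89, 1.05, 1.16 and 1.38, so that the size rule was missed at -80 mmHg, where the ratio of reads was 2.09 (1.72 to 2.54). With a pseudocount of 0.1 FPKM the difference at -80 mmHg was 1.04 and passed, whereas with a pseudocount of 5 FPKM it was 0.55 to 0.89 and passed at no pressure. Scaled by a trimmed mean of log ratios Il6 had 0.74 and 0.91 at -80 and -120 mmHg, and by quantile normalization 0.69, 0.88 and 0.96 at -80, -120 and -160 mmHg, all short of the size rule.

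The same order held without the control. Il6 at -200 mmHg was 1.45 times its level at -80 mmHg (1.26 to 1.68). Between neighbouring pressures the ratios were 1.13 (0.966 to 1.32), 1.09 (0.939 to 1.26) and 1.18 (1.03 to 1.35), so the counting interval lay above 1 at the last step only. Among all genes 0.38% rose in order over the 5 libraries with a difference that passed the size rule, and 0.388% fell in order. Il6 was the 1 gene of the 9 with such a rising order, and 0 of the 9 had a falling one.

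Lif, the leukaemia inhibitory factor gene (chromosome 11, 4257557 to 4272514, plus strand), did not share the pattern of Il6. It stood at 2.20 FPKM in the control, 2.21 FPKM at -80 mmHg, and 1.55, 1.46 and 1.64 FPKM at -120, -160 and -200 mmHg. The control and the -80 mmHg library were alike, and the other 3 pressure libraries were lower. Its log2 difference at -80 mmHg was 0.01, and -0.14 with the trimmed mean of log ratios as the scale. The ratio to the control was 1.01 (0.806 to 1.25) at -80 mmHg and 0.664 (0.517 to 0.848) at -160 mmHg, the lowest. Within each library, where the total cancels, the ratio of Il6 to Lif was 1.66 (1.33 to 2.07) in the control and 3.45, 5.55, 6.42 and 6.74 from -80 to -200 mmHg.

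Il11 encodes a gp130 ligand with roles in bone and fibrosis (chromosome 7, 4772373 to 4782859, minus strand). It was read 8 times in the control and 17, 17, 27 and 27 times under pressure, or 0.209, 0.491, 0.492, 0.763 and 0.719 FPKM. All 4 pressure libraries were above the control. The ratio was 2.35 at -80 mmHg with an interval of 0.961 to 6.29, which includes 1, and 3.65 (1.61 to 9.30) at -160 mmHg. At a mean of 0.535 FPKM it lay below the expression limit, so it entered no count.

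Of 7 other ligand genes of the family 2 reached the expression limit. Of these, 1, Clcf1, rose at all 4 pressures, beside 6.49% of all genes. Another 2, Osm and Ebi3, were at 0 reads in every library. A count of 0 allows up to 3 reads per library. Clcf1 encodes cardiotrophin-like cytokine. It stood at 9.68 FPKM in the control and at 23.6, 21.5, 22.5 and 21.9 FPKM under pressure, and the 4 pressure libraries lay close together. Its log2 difference of 1.08 to 1.20 became 0.94 to 1.05 under the trimmed mean, past the size rule at -80 mmHg only, 0.99 to 1.14 under quantile normalization and 0.85 to 0.96 with a pseudocount of 5 FPKM. Clcf1 is overlapped on its own strand by a coding gene model that was at 0 in all 5 libraries, and by an 87-base miRNA gene model on the other strand that had 1.87 FPKM in the control and 8.91 to 11.7 FPKM with pressure. Per length of transcript, Clcf1 and Ctf1 (cardiotrophin 1, 8.88 FPKM in the control, 9.62 to 11.2 FPKM with pressure) were read more than Il6 in the control. At -200 mmHg Il6 (11.1 FPKM) stood beside Ctf1 (11.2 FPKM).

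Among the receptor chains, Osmr was higher and Il6st and Lifr lower under pressure. Osmr (chromosome 15, 6813577 to 6874969, minus strand) pairs with gp130 to bind oncostatin M. It stood at 24.6 FPKM in the control and at 52.3, 46.5, 51.0 and 52.0 FPKM from -80 to -200 mmHg. The 4 pressure libraries lay close together and all were well above the control. Osmr rose at -80, -160 and -200 mmHg, with log2 differences of 1.06, 1.03 and 1.05, and missed the size rule at -120 mmHg (0.89). These calls were lost under the trimmed mean of log ratios (0.75 to 0.91 over the 4 pressures) and with a pseudocount of 5 FPKM (0.80 to 0.96). By reads its ratio to the control ran from 1.89 to 2.13, and the intervals together spanned 1.83 to 2.20.

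Il6st, the shared gp130 chain (chromosome 13, 112464070 to 112510086, plus strand), stood at 59.5 FPKM in the control and at 46.3, 42.1, 45.6 and 43.7 FPKM under pressure. All 4 pressure libraries were below the control, by less than the size rule, with ratios of 0.708 to 0.779 and intervals that spanned 0.688 to 0.801. Lifr, the LIF receptor (chromosome 15, 7090614 to 7197489, plus strand), stood at 9.47 FPKM in the control and at 6.44, 5.74, 5.93 and 5.74 FPKM. Its control library was the highest as well, and the ratios were 0.606 to 0.680 (intervals 0.561 to 0.733). Osmr and Lifr are neighbours on chromosome 15, separated by 215644 bases with 0 coding genes between them in the annotation, and they lay on opposite sides of the control at all 4 pressures.

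Il6ra, the chain that binds IL-6 (chromosome 3, 89864059 to 89913196, minus strand), stood at 2.21 FPKM in the control and at 4.05, 3.50, 3.56 and 3.59 FPKM under pressure. The 4 pressure libraries were above the control by a log2 difference of 0.49 to 0.65, below the size rule, with read ratios of 1.58 to 1.83. An antisense gene that overlaps it by 281 bases was at 0.525 FPKM or below in every library. Il11ra1, the IL-11 receptor chain, is no member of the set of 10 and had the highest level of the partner chains in the control, at 31.9 FPKM, against 17.2 to 18.0 FPKM under pressure (log2 difference -0.85 to -0.79). Its annotated span overlaps several other genes and near-identical copies of it exist in the mouse genome, so its level is uncertain.

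Ratios within a library do not depend on the library total. The ratio of Osmr to Il6st was 0.413 (0.400 to 0.426) in the control and 1.13, 1.10, 1.12 and 1.19 from -80 to -200 mmHg, where the lowest interval bound was 1.07. By FPKM, Osmr therefore stood below Il6st in the control library and above it in each pressure library. The length used for a gene joins all its annotated exons, and the intervals leave out any error in that length. The ratio of Osmr to Lifr was 2.59 (2.46 to 2.74) in the control and 8.12, 8.10, 8.61 and 9.06 under pressure. The ratio of Il6ra to Il6st was 0.0372 in the control and 0.0780 to 0.0874 under pressure, while that of Lifr to Il6st was 0.159 (0.152 to 0.167) and 0.130 to 0.139. Of the summed FPKM of 7 receptor chains of the family other than Il6st, Osmr took 35.7% in the control and 62.3% to 64.6% under pressure. Il11ra1 took 46.4% and 21.5% to 23.8%, and Lifr 13.8% and 7.11% to 7.88%. All these shares depend on the level of Il11ra1, which is uncertain.

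**Figure D2:**
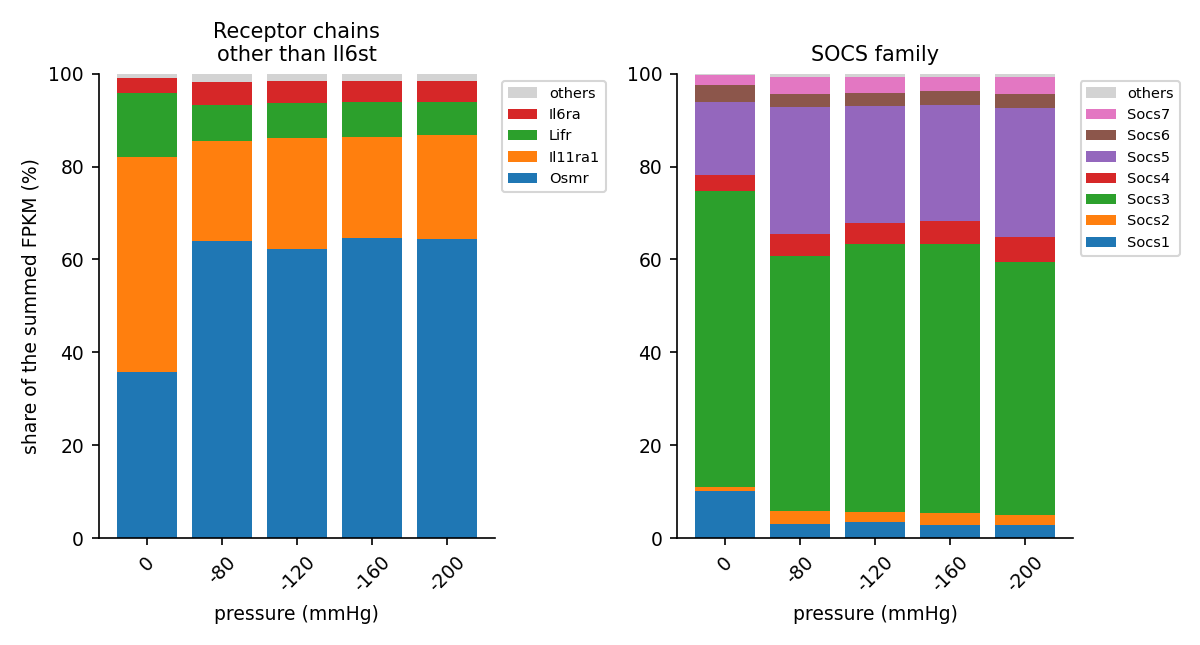
Share of the summed FPKM (vertical axis, percent) taken by each gene in the 5 libraries (horizontal axis, pressure in mmHg), for 7 receptor chains other than Il6st and for 8 SOCS family genes. Each bar is 1 library and genes that stay under 2 percent are pooled as others. Osmr is the largest receptor part under pressure (62.3% to 64.6%, against 35.7% in the control) and Socs3 is the largest SOCS part in every library. The receptor shares depend on the level of Il11ra1, which is uncertain.

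Stat3, the main transcription factor downstream of gp130 (chromosome 11, 100885098 to 100939540, minus strand), stood at 17.3 FPKM in the control and at 32.5, 30.5, 30.4 and 29.0 FPKM from -80 to -200 mmHg. All 4 pressure libraries were above the control, and the highest was at -80 mmHg. The log2 difference of 0.71 to 0.87 did not reach the size rule, and the read ratio was 1.68 to 1.88 (intervals 1.60 to 1.97). Stat3 and the neighbouring Stat5a overlap by 72 bases.

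Of 9 Janus kinase and other STAT genes compared here 8 reached the expression limit. All 8 missed the size rule at every pressure, as did 9456 of all 12113 genes. Stat2, a mediator of type I interferon signals, stood at 56.2 FPKM in the control and at 34.5, 36.0, 34.9 and 31.8 FPKM from -80 to -200 mmHg. Its 4 pressure libraries were below the control, on the other side of it from Stat3. The kinase gene Jak2 had 10.6 FPKM in the control and, with pressure, 13.4 to 16.01 FPKM, while Jak1 had 32.0 and 34.1 to 37.3 FPKM.

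The feedback inhibitors differed in level and in size of change. Socs3, which binds gp130 and its kinases (chromosome 11, 117966079 to 117970047, minus strand), was among the highest of the set by FPKM. It stood at 51.1 FPKM in the control and at 66.4, 67.6, 73.3 and 63.4 FPKM under pressure. All 4 were above the control by a log2 difference of 0.31 to 0.51, below the size rule, and by a read ratio of 1.24 to 1.43 (intervals 1.18 to 1.51). Relative to Stat3 it was lower, with a ratio of Socs3 to Stat3 of 2.95 (2.80 to 3.11) in the control and 2.04 to 2.41 under pressure.

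Socs2, best known as a brake on growth hormone and STAT5 signalling (chromosome 10, 95385362 to 95417180, minus strand), stood at 0.690 FPKM in the control and at 3.29, 2.60, 3.34 and 2.44 FPKM under pressure. The -80 and -160 mmHg libraries were the highest and the control the lowest. It rose at all 4 pressures (log2 difference 1.34, 1.09, 1.36 and 1.03), with read ratios of 3.54 to 4.84 and intervals that spanned 2.88 to 5.94. Since its control level was under 1 FPKM, Socs2 passed the expression limit through the pressure libraries. Scaled by a trimmed mean of log ratios, its difference was 0.95 at -120 mmHg and 0.89 at -200 mmHg, short of the size rule, and 1.19 and 1.21 at the other pressures. Quantile normalization gave 0.87 to 1.19 and a pseudocount of 5 FPKM 0.39 to 0.55. Its ratio to Socs3 remained small, 0.0135 in the control and 0.0384 to 0.0495 under pressure.

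Of 14 other brakes on the pathway 12 were measured. At all 4 pressures 1 rose, beside 6.49% of all genes, and 0 fell, beside 4.46%. The size rule was missed at every pressure by 9 of the 12, and by 9456 of all 12113 genes. The gene that rose was Socs5, a SOCS protein linked to epidermal growth factor receptor turnover, from 12.6 FPKM to 32.9, 29.5, 31.9 and 32.3 FPKM, and it missed the rule at -120 mmHg with a pseudocount of 5 FPKM (0.97). Socs1, an inhibitor of interferon and Janus kinase signalling, stood at 8.15 FPKM in the control and at 3.80, 4.10, 3.64 and 3.37 FPKM, past the size rule at -200 mmHg only. Ptpn1, the phosphatase PTP1B, lay on the other side of the control, at 16.0 FPKM there and 35.2, 35.8, 33.9 and 32.0 FPKM with pressure, past the size rule at -80, -120 and -160 mmHg (both named after their values were seen). The ratio of Socs3 to Socs1 was 6.27 (5.67 to 6.96) in the control and 16.5 to 20.1 under pressure. Cish, a close relative of Socs2, had 0.195 FPKM in the control and, with pressure, 0.906 to 0.985 FPKM, and did not reach the expression limit. Of 4 genes for receptor shedding and recycling, all measured, 1 rose at all 4 pressures, beside 6.49% of all genes, and 0 fell, beside 4.46%. The other 3 missed the size rule at every pressure. The gene that rose was Adam10, a membrane protease that can release the IL-6 receptor, from 14.2 FPKM to between 34.9 and 38.8 FPKM. Adam17, the other main sheddase, stood at 10.3 FPKM and 9.73 to 12.1 FPKM.

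**Figure D3:**
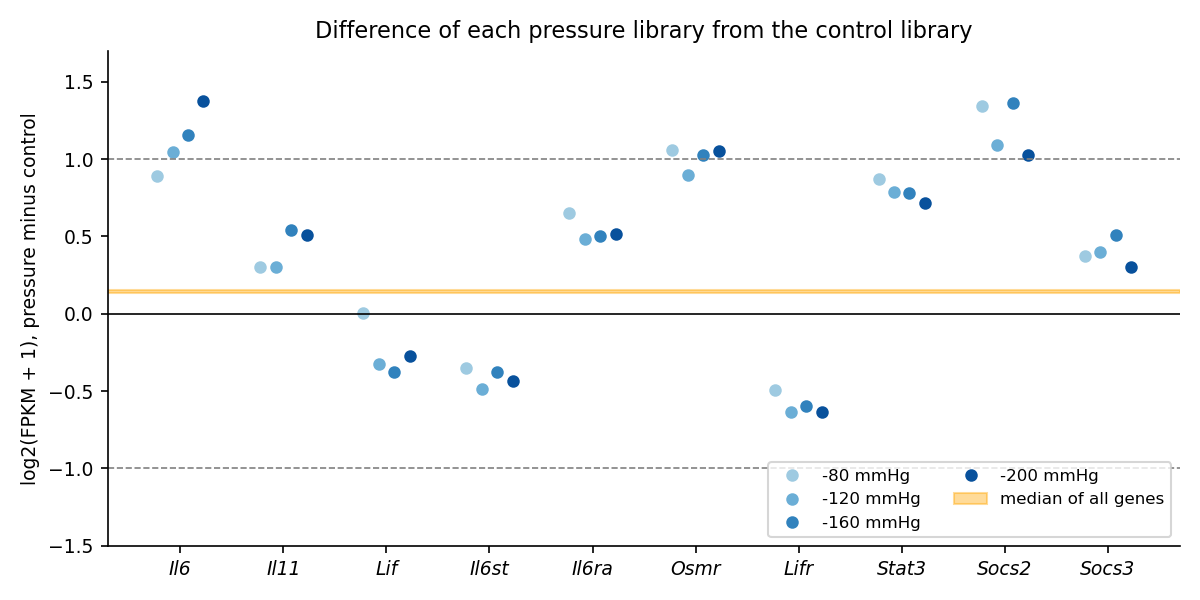
Difference from the control library in log2(FPKM + 1) (vertical axis) for each gene (horizontal axis) at the 4 pressures (blue points, 1 library each). Dashed lines mark the size rule of 1 in each direction and the orange band the median of all genes, 0.14 to 0.16. Socs2 lies above the upper line at all 4 pressures, Il6 and Osmr at 3 of 4, and 0 genes lie below the lower line. Il11 is drawn but was under the expression limit.

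The order of levels changed between the control and the pressure libraries. In the control it ran Il6st, Socs3, Osmr, Stat3, Lifr, Il6, Il6ra, Lif, Socs2 and Il11 from high to low. In every pressure library it ran Socs3, Osmr, Il6st, Stat3, Il6, Lifr, Il6ra, Socs2, Lif and Il11. Il6ra and Lif in the control (ratio 1.01, interval 0.838 to 1.21) and Il6ra and Socs2 at -160 mmHg (1.07, 0.944 to 1.20) were the neighbours that did not differ beyond counting error. The other neighbours in that order differed beyond it within their library, the smallest ratio being that of Osmr and Il6st at -120 mmHg (1.10, 1.07 to 1.14).

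Differences among the 4 pressures were small. Of the 9 measured genes 0 differed by the size rule between their highest and lowest pressure library, beside 2.26% of all genes. Their median log2 span over the pressures was 0.17, and that of all genes was 0.22. Il6 had the largest log2 span (0.48), followed by Lif (0.38) and Socs2 (0.33), while Il6st (0.13) had the smallest. By the plain ratio of highest to lowest pressure library, without the pseudocount, Lif (1.51) stood above Il6 (1.45). Lif at -200 mmHg was 0.743 times its level at -80 mmHg (0.585 to 0.943), Socs2 0.743 times (0.652 to 0.846) and Osmr 0.994 times (0.968 to 1.02).

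STAT3 target genes, as a list of 25, moved in both directions. Of 22 measured, 5 rose and 2 fell at all 4 pressures, beside 6.49% and 4.46% of all genes, 3 passed the size rule at some pressures and 12 at none. Their median log2 difference was 0.36 to 0.43, and that of all genes 0.14 to 0.16. Lbp, the lipopolysaccharide-binding acute-phase protein, rose from 30.7 FPKM to 142, 148, 140 and 141 FPKM. Bcl6, a transcriptional repressor, rose from 3.91 FPKM to between 13.3 and 14.6 FPKM, Junb, an AP-1 subunit, from 130 FPKM to between 329 and 392 FPKM, and Serpina3n, an acute-phase protease inhibitor, from 36.8 FPKM to between 87.4 and 104 FPKM. Hif1a, the hypoxia-inducible factor, rose from 63.3 FPKM to between 128 and 149 FPKM, with a log2 difference at -120 mmHg of 1.0003, on the limit, which was 0.86 under the trimmed mean and 0.96 with a pseudocount of 5 FPKM. The genes that fell, named after their values were seen, were Bcl3, an NF-kB cofactor (39.6 FPKM to between 16.3 and 18.3 FPKM), and Hp, which encodes haptoglobin (101 FPKM to between 41.3 and 49.7 FPKM). With a pseudocount of 5 FPKM, Bcl3 (-1.07 to -0.94) passed at -200 mmHg alone. Hp missed the rule at -120 mmHg with that pseudocount (-0.95) and without the 50 most abundant genes in the total (-0.98), and at 3 pressures under quantile normalization (-1.08 to -0.87). The acute-phase genes on the list thus lay on both sides of the control. Many of these genes also respond to other factors.

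Over all 63 pathway genes outside the set of 10, 50 were measured, 8 rose and 2 fell at all 4 pressures, beside 6.49% and 4.46% of all genes, 5 passed the size rule at some and 35 missed it throughout. Their median log2 difference was 0.14 to 0.28, against 0.14 to 0.16 over all genes.

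**Figure D4:**
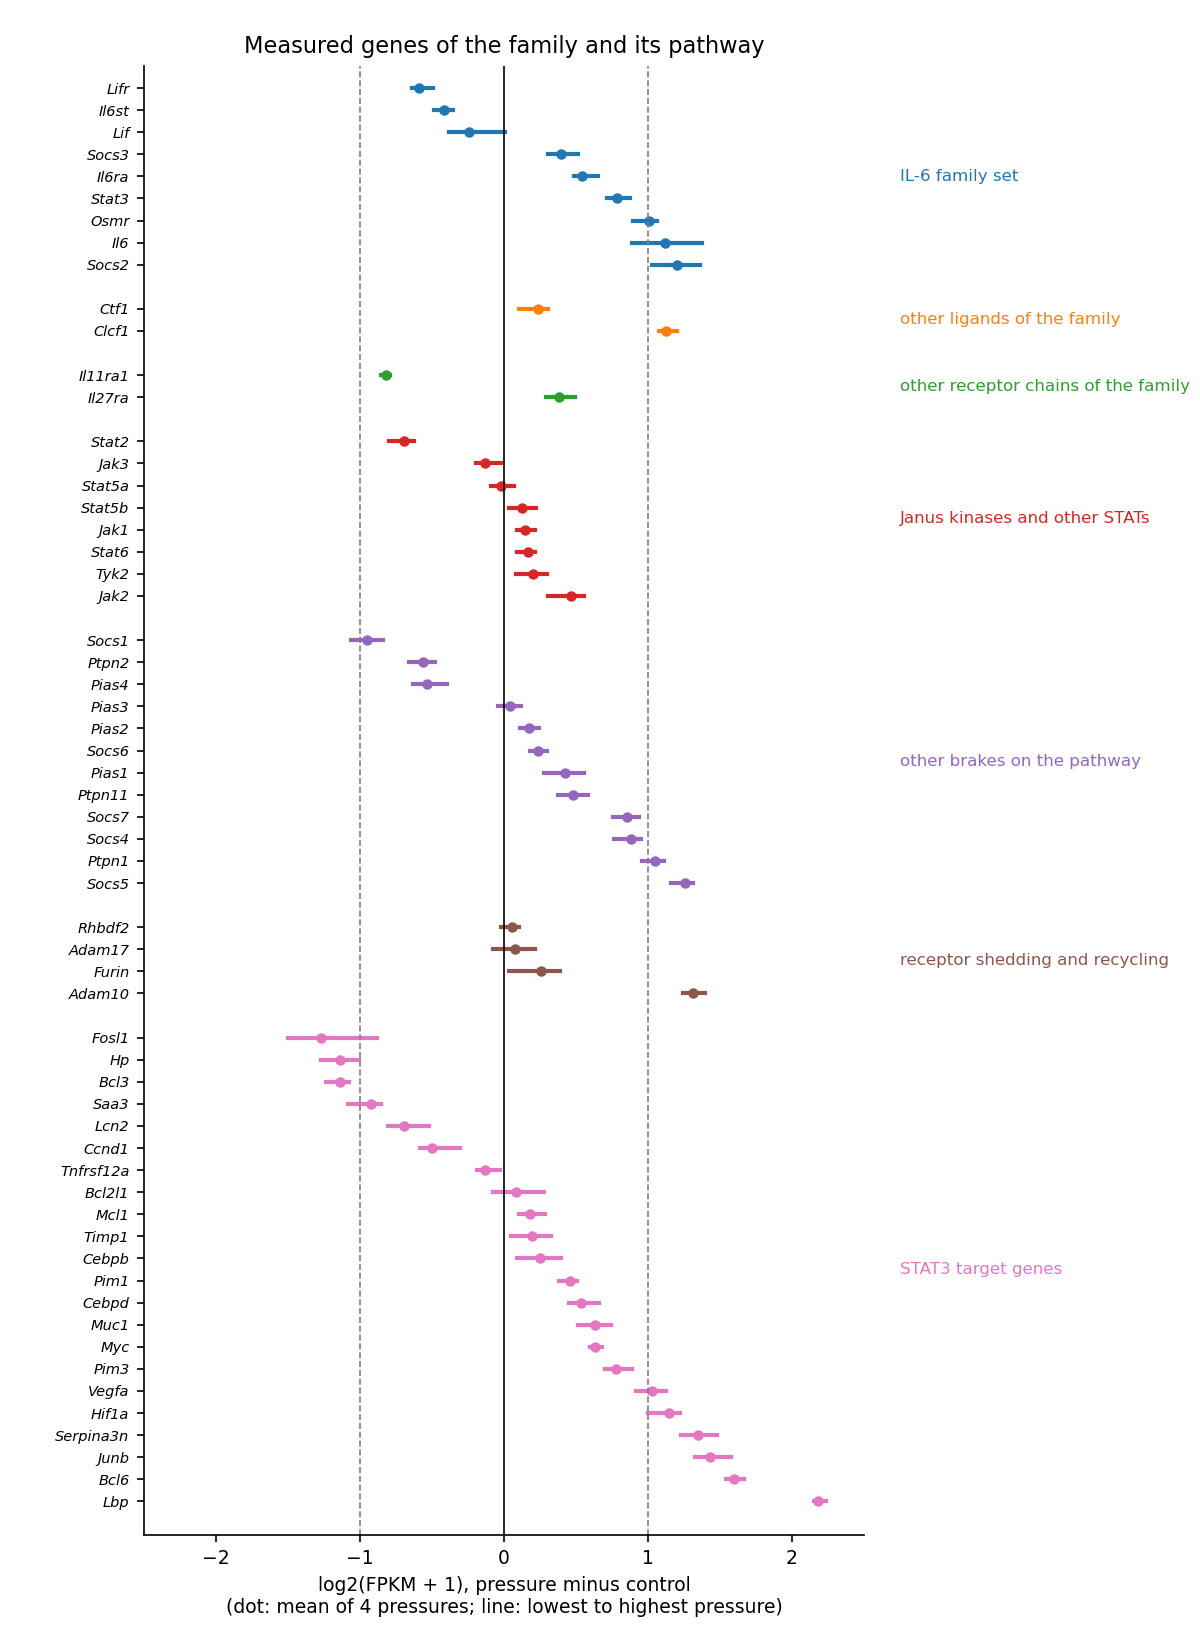
Measured genes of the family and of 6 pathway lists (vertical axis) with their difference from the control in log2(FPKM + 1) (horizontal axis). Dots are means over the 4 pressures, lines run from the lowest to the highest pressure library, and dashed lines mark the size rule. By its mean Lbp lies farthest to the right, and Fosl1, an AP-1 subunit that did not pass at all 4 pressures, farthest to the left.

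Genes outside the set with the most similar profiles were found among 10644 candidates by Euclidean distance between log2(FPKM + 1) values centred over the 5 libraries. Since most of each profile is the step from the control to the pressure libraries, the distances describe these 5 libraries only. The nearest genes to Il6 were Fuom (distance 0.13) and Herpud1 (0.17), and Fuom also increased at every step, from 2.84 to 9.55 FPKM. For Osmr they were Slc25a16 and Zeb1 (both 0.05), for Socs2 Synm (0.08) and Fndc3b (0.09), for Stat3 Zfp664 and Il17rd (both 0.04), and for Socs3 Prmt3 and Rfwd3 (both 0.05). For Il6ra they were Tab2 (0.02) and Zfp629 (0.03), for Il6st Nampt (0.03) and Tedc1 (0.04), for Lifr Cxcl12 and Ndrg2 (both 0.04), and for Lif Kif21a and Dock6 (both 0.09).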

How the data were processed

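RNA-seq of 5 cultures gave 1 table of FPKM values deposited by the authors, 1 column per library. The submitters' processing notes list featureCounts 1.5.0-p3, HISAT2 and SAMtools, and name rn6, which is a rat build. The table's 55401 IDs are mouse Ensembl IDs, of which 54349 matched GENCODE M21 (GRCm38) with their version and 55141 in any version. For strand of counting, the sources used here give nothing. Multiplied by exon length, 98.8% of genes gave whole reads in all 5 libraries (tolerance 0.001 reads), which also fixed the library totals. Genes without reads counted as whole and could not fail, so that share overstates how well the recovery was checked. The recovered reads served for intervals and floors (3 reads), and no count model was run.

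Differences used a pseudocount of 1 FPKM. The genes, lists and tests were chosen with earlier results of these data known. From each pathway list at most 5 genes past the size rule at all 4 pressures were named, by mean difference, and 2 nearest profiles per measured gene. Any other pathway or marker gene in the text was named after its values were seen, marker genes at 0 excepted. The alternatives were pseudocounts of 0.1 and 5, no filter and 5 FPKM, a trimmed mean of log ratios (30% at each end), quantile normalization, a total without the 50 most abundant genes, and a 1.5-fold rule. Scripts were tested on simulated data. Of the pathway lists 2 genes are not reported here. Columns of other samples numbered 0. Software was Python 3.11.15 with matplotlib 3.10.9, scipy 1.17.1, pandas 2.3.3 and numpy 2.4.6.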

Additional observations from a re-analysis of the deposited data

How the results depend on the processing

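The count of genes of the set that rose at all 4 pressures (1, Socs2) depended on the setting. It was 2 with a pseudocount of 0.1 (Il6 and Socs2, beside 11.4% of all genes, against 6.49% under the rule as reported) and 4 with the 1.5-fold rule (Il6, Osmr, Stat3 and Socs2, beside 17.8% of all genes). It was 0 with a pseudocount of 5, with a mean of at least 5 FPKM, with the trimmed mean of log ratios and with quantile normalization, where 1.75%, 6.34%, 4.42% and 4.80% of all genes were higher. Under the trimmed mean the log2 difference of Socs2 was 0.89 to 1.21, that of Il6 0.74 to 1.24 and that of Osmr 0.75 to 0.91. The count that fell at all 4 pressures, and the count past the rule between pressures, stayed at 0 under each alternative. Of the pathway genes outside the set, 8 rose and 2 fell at all 4 pressures. These counts were 14 and 7 with the 1.5-fold rule (beside 17.8% and 10.4% of all genes), 5 and 0 with a pseudocount of 5 (1.75% and 2.72%) and 6 and 3 with the trimmed mean (4.42% and 5.94%), under which Clcf1 and Hif1a were lost. With the 50 most abundant genes left out 1 fell (beside 4.43%). Of 40 differences (10 genes at 4 pressures) 1 turned its sign under the trimmed mean and under quantile normalization, Lif at -80 mmHg in both, and 0 under the other alternatives. Depth limits Il11 (8 to 27 reads per library) and Lif (108 to 176 reads). It also limits the ratios of Socs2 and Il6 to the control, where they had 121 and 163 reads. No paired analysis was possible because each condition has 1 library and no difference comes from a test.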
